A study of Rattus norvegicus with 17 samples.

Results

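H3K9me3, histone H3 trimethylated at lysine 9, was mapped by chromatin immunoprecipitation with sequencing (ChIP-seq) at 3 stages of the rat oligodendrocyte lineage, and the regions described here are those called in mature oligodendrocytes (mOL) and at no earlier stage. Joining the overlapping or touching H3K9me3 peaks of the 3 stages gave 9540 regions. Of these, 5816 met an mOL peak and no peak of oligodendrocyte precursor cells (OPC) or immature oligodendrocytes (iOL). They made up 61.0% of all regions and 82.2% of the 7072 regions called in mOL. The regions were chosen by the peak calls of the H3K9me3 lists themselves, so their number describes those lists and nothing was tested on it.

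The cells were primary cells of wild-type Sprague-Dawley rats, taken from the cortex of pups at postnatal day 2 by differential detachment. OPC carried the label of mitogen treatment, for which the growth medium held PDGF-AA (10 ng/ml) and bFGF (20 ng/ml). Both iOL and mOL carried the label of T3 treatment, in a differentiation medium with the thyroid hormone T3 (15 nM) and ciliary neurotrophic factor (10 ng/ml). The other lists set against H3K9me3 were those of H3K27Ac, H3K4me3, Olig2 and Brg1 at the 3 stages and of RNA polymerase II (RNAPII) in OPC and iOL. The label of the H3K9me3 samples gives the antibody as Abcam ab8896. Abcam lists that catalogue number for monomethylated lysine 9 (H3K9me1), so the mark is named here as the label names it, and its methylation state was not tested.

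H3K9me3 is written by methyltransferases such as SETDB1 and the SUV39H enzymes and is read by HP1 proteins, which hold chromatin in a compact, silent form. It covers satellite repeats, transposable elements and clusters of repeated genes, and it is known to increase as OPC leave the cell cycle and their nuclei condense. H3K27Ac marks active enhancers and promoters, H3K4me3 marks promoters, Olig2 is a transcription factor of the lineage, and Brg1 is the motor subunit of BAF complexes, which move nucleosomes. H3K9me3 and the active marks are usually found at different places.

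Each target and stage had 1 library, so no difference between stages has a replicate check. The OPC list of H3K9me3 covered 3.85 Mb with 3149 peaks, the iOL list 0.639 Mb with 827, and the mOL list 7.70 Mb with 7103. Depth is unknown, and a place where the mark was newly laid down in mOL cannot be told apart from a place that only the mOL library was deep enough to show. Nor can the mark in more cells be told apart from more of the mark per cell. Intervals in parentheses are exact 95% intervals over regions and cover counting error only.

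The rule sets these regions apart by overlap alone, and some of them lay at its edge. The 5 nearest to an earlier H3K9me3 peak were separated from it by 12 to 20 bp. The closest was chr16:21375066-21376226 (rn4, 1161 bp) at 12 bp, followed by chr1:60801548-60802446 (899 bp) at 18 bp. Just outside the rule, the mOL peak chr13:67616542-67617114 (573 bp) overlapped an earlier peak by 18 bp and chr6:98549415-98550433 (1019 bp) by 19 bp. Such cases were few: 129 of the 5816 regions (2.22%, 1.86 to 2.63) had an earlier peak within 1 kb.

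The regions called in mOL alone were narrow. Each consisted of a single mOL peak, with a median width of 899 bp, quartiles of 724 and 1146 bp and a range from 380 to 8480 bp. The 1287 mOL peaks of regions shared with OPC or iOL had a median of 1265 bp and quartiles of 958 and 1734 bp. Peaks of OPC had a median of 1056 bp and those of iOL 659 bp, so the mOL-alone peaks lay between these lists. The 2468 regions of OPC or iOL without mOL had a median of 926 bp and quartiles of 758 and 1204 bp. A narrow width was thus not particular to mOL-alone regions. Of the 3988 mOL peaks from 500 to below 1000 bp, 90.6% (89.7 to 91.5) were mOL-alone. The share was 74.7% (73.0 to 76.3) of the 2729 peaks from 1000 to below 2000 bp and 28.0% (19.5 to 37.9) of the 100 peaks of 3000 bp or more. Most of the mOL peaks of 3000 bp or more thus belonged to regions already called in OPC or iOL. Width enters the rule, since a wide peak has more room to meet another.

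**Figure D1:**
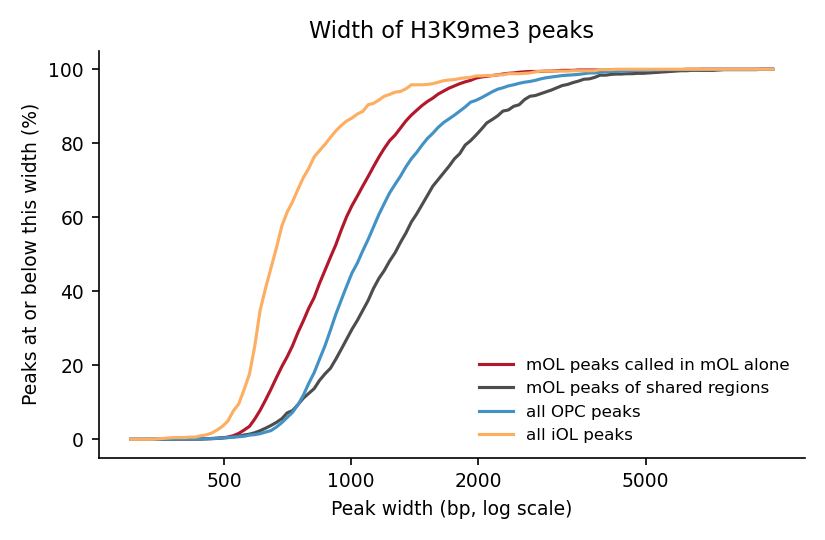
Cumulative share of H3K9me3 peaks (%, vertical) at or below each width (bp, log scale, horizontal), for mOL peaks called in mOL alone, mOL peaks of shared regions, all OPC peaks and all iOL peaks. The mOL-alone curve, with its median at 899 bp, lies to the left of the mOL peaks of shared regions, with a median of 1265 bp.

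The widest of them were scattered over the genome. The widest was chrX:129466128-129474607 at 8480 bp, which lay 0.379 kb from an earlier H3K9me3 peak and met an OPC peak of RNAPII. The next, chr15:40023101-40029418, spanned 6318 bp and lay under H3K27Ac peaks of iOL and mOL. chr10:36384136-36390217 at 6082 bp and chr16:2659966-2665728 at 5763 bp met no other list, and the latter was 550.5 kb from the nearest earlier H3K9me3. The fifth, chr18:30655408-30660284 at 4877 bp, belonged to the densest group described next.

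Most mOL-alone regions stood singly, but a minority lay in groups. Another mOL-alone region was found within 10 kb of 996 of the 5816 (17.1%, 16.2 to 18.1), where the sequence within 10 kb of such regions, themselves included, was 4.11% of the placed chromosomes. The median gap to the nearest other one was 92.9 kb. Joined across gaps of up to 10 kb, they formed 4820 single regions, 355 pairs, 54 groups of 3, 17 groups of 4, 5 groups of 5 and 1 group of 31. By the same measure, 5.73% (4.51 to 7.16) of the 1256 mOL regions shared with earlier stages and 9.89% (8.74 to 11.1) of the 2468 OPC or iOL regions without mOL had another of their own kind within 10 kb. These classes hold fewer regions, and 0.975% and 1.81% of the placed sequence lay within 10 kb of them.

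The group of 31 lay at chr18:30567042-30682467, a stretch of 115 kb in which 45.4% of the sequence was covered by mOL-alone H3K9me3. Its regions were 859 to 4877 bp wide, with a median of 1455 bp, and 30 of the 31 were wider than the median of all mOL-alone regions. Gaps between successive ones ran from 18 to 5914 bp, with a median of 1368 bp. The stretch held 35 mOL peaks, 4 iOL peaks and no OPC peak of H3K9me3, and the iOL peaks overlapped the 4 mOL peaks that are not mOL-alone. The nearest OPC H3K9me3 peak was 76511 bp away. The stretch alone held 10.9% of the 284 mOL-alone regions of chromosome 18.

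The active marks called in this stretch lay mostly between the H3K9me3 peaks. A single H3K27Ac site was called at all 3 stages, at chr18:30669163-30670183 in mOL, chr18:30669107-30670074 in OPC and chr18:30669174-30669925 in iOL. H3K4me3 was called nowhere in the stretch in OPC or iOL. In mOL it had 4 peaks there, of 392 to 912 bp, and 1 of them, chr18:30669264-30670175, overlapped the acetylated site. The autosomes held 6.61 mOL H3K4me3 peaks per Mb, so this mark was denser in the stretch than on the autosomes. The other mOL H3K4me3 peaks were chr18:30575068-30575862, chr18:30580291-30580682 and chr18:30624199-30624861. The H3K4me3 peak chr18:30580291-30580682 overlapped 1 of the 31 regions, which met no other peak of another target, and 3 of the 31 had an mOL H3K4me3 peak within 1 kb. Olig2 and Brg1 had no peak in the stretch at any stage, and RNAPII had none in OPC or iOL, the stages with an RNAPII list. H3K9me3 and H3K4me3 were thus both called in mOL in a stretch where neither was called in OPC.

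**Figure D2:**
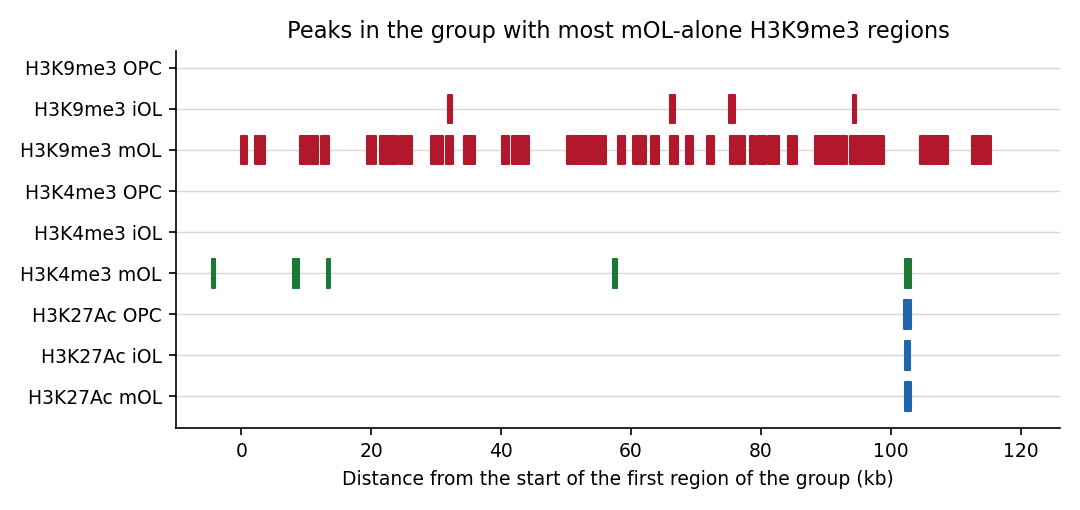
Peaks of H3K9me3, H3K4me3 and H3K27Ac at each stage (rows) along the 115 kb group with most mOL-alone regions and 10 kb on each side; the horizontal axis gives the distance in kb from the start of its first region, and each box is a peak drawn to scale. The mOL H3K9me3 row holds 35 peaks, 31 of them mOL-alone, against 4 in the iOL row and 0 in the OPC row.

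Upstream of this stretch the density stayed high. The 1 Mb before it held 28 further mOL-alone regions and 6 regions called in OPC or iOL, and the 500 kb after it held 2 mOL-alone regions. A group of 5 in the upstream part, chr18:30297387-30317468, contained 1 OPC peak and 2 mOL peaks of H3K4me3 and 1 mOL peak of H3K27Ac. The other groups of 5 differed in what else they held. chr1:74696295-74712708 and chr3:166810731-166832767 contained no peak of any other target. chr13:35770161-35789019 was 54.0% covered by its 5 regions and contained 4 iOL and 6 mOL peaks of H3K27Ac and 1 iOL peak of Olig2. chr20:19029643-19049731 contained 2 iOL and 2 mOL peaks of H3K27Ac, 1 iOL peak of Olig2 and 1 mOL peak of Brg1.

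Grouped regions were close to earlier H3K9me3 more often than single ones. An OPC or iOL H3K9me3 peak lay within 10 kb of 6.41% (5.74 to 7.14) of the 4820 single regions and of 17.4% (15.1 to 19.9) of the 996 grouped ones. Among the 286 in groups of 3 or more the share was 34.3% (28.8 to 40.1), and 98 regions showed it. Without the group of 31 it was 30.6% of 255. Median widths were 894 bp for single regions, 932 bp for grouped ones and 1018 bp in groups of 3 or more. H3K27Ac of mOL was met by 2.16% (1.77 to 2.61) of single and 3.82% (2.71 to 5.20) of grouped regions.

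Few of these regions lay beside places that already carried the mark. An OPC or iOL H3K9me3 peak was found within 10 kb of 482 of the 5816 (8.29%, 7.59 to 9.03), within 5 kb of 5.43% and within 100 kb of 34.5% (33.3 to 35.8). Measured from region centres, 8.00% (7.31 to 8.72) lay within 10 kb of an earlier peak, where 2.71% of the placed sequence lay. The median gap was 195 kb, with quartiles of 59.3 and 461 kb. There were 344 regions within 10 kb of an OPC peak and 213 within 10 kb of an iOL peak, where the OPC list holds 3149 peaks and the iOL list 827. Of the 482 near regions, 42 had an earlier peak within 10 kb on both sides and 440 on 1 side. Joining all 9540 H3K9me3 regions across gaps of up to 10 kb gave 371 stretches that held mOL-alone and earlier regions together, with 522 of the mOL-alone regions in them. The other 5294 lay in 4870 stretches of their own.

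Those few were nevertheless denser near earlier H3K9me3 than elsewhere. Over all placed sequence, there were 2.14 mOL-alone regions per Mb. At 0 to 2 kb from an earlier peak there were 163 regions in 14.6 Mb, or 11.2 per Mb (9.52 to 13.0). The density was 5.96 per Mb (4.96 to 7.10) at 2 to 5 kb, 5.24 (4.50 to 6.08) at 5 to 10 kb, 4.14 (3.73 to 4.57) at 10 to 25 kb and 2.80 (2.60 to 3.02) at 50 to 100 kb. Beyond 500 kb it was 1.27 per Mb (1.20 to 1.34). The density therefore fell with distance well past the width of a peak. A similar fall beyond 50 kb was seen around OPC H3K27Ac peaks, so that part was not particular to earlier H3K9me3. At 50 to 100 kb the density was 2.80 per Mb around earlier H3K9me3 and 2.72 around OPC H3K27Ac. At 100 to 500 kb the values were 2.22 and 2.02, and beyond 500 kb 1.27 and 1.20. At 10 to 25 kb they lay further apart, at 4.14 and 2.92. Around OPC H3K27Ac peaks the density was not highest at the peaks: it was 1.95 per Mb (1.60 to 2.35) at 0 to 2 kb, 2.70 (2.34 to 3.11) at 2 to 5 kb, 2.92 (2.71 to 3.14) at 10 to 25 kb and 1.20 (1.11 to 1.29) beyond 500 kb.

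**Figure D3:**
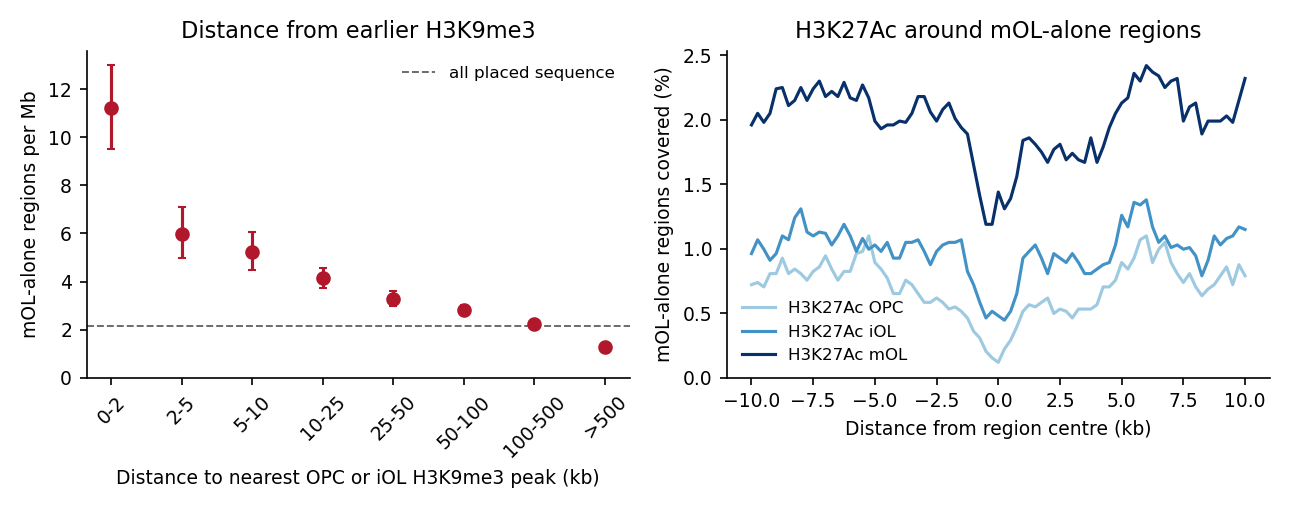
Left, mOL-alone regions per Mb of sequence (vertical) by distance of the region centre from the nearest OPC or iOL H3K9me3 peak (kb, horizontal), with exact Poisson 95% intervals and the density over all placed sequence, 2.14 per Mb, as a dashed line. Right, share of the 5816 regions (%) covered by H3K27Ac of each stage at each distance from the region centre (kb); the OPC line is at 0.120% at the centre and averages 0.847% at 5 to 10 kb on either side.

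All 21 chromosomes carried mOL-alone regions, from 81 on the X to 711 on chromosome 1. Chromosome 12 had the highest density of any chromosome at 4.04 per Mb (3.49 to 4.66), followed by chromosome 18 at 3.28 (2.91 to 3.68) and chromosome 20 at 2.97 (2.53 to 3.46). The lowest autosomal density was that of chromosome 2, at 1.77 per Mb (1.62 to 1.94). The X had 0.504 per Mb (0.40 to 0.627), which is 0.225 times the autosomal 2.24. The X was low for every target in these lists, with peaks per Mb at 0.0694 (Brg1 of mOL) to 0.805 (RNAPII of OPC) times the autosomal value. For H3K9me3 peaks the ratio was 0.592 in OPC, 0.394 in iOL and 0.225 in mOL. The share of mOL regions that were mOL-alone was 82.7% (73.7 to 89.6) on the X and ran from 76.6% to 87.2% over the chromosomes. As 82.2% of all mOL regions were mOL-alone, their spread over chromosomes largely had to follow that of the mOL list.

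**Figure D4:**
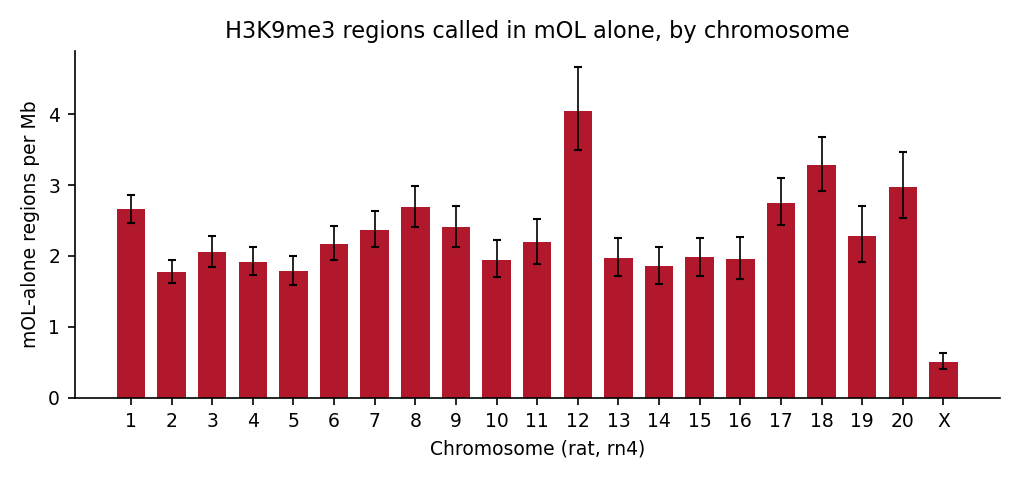
H3K9me3 regions called in mOL alone per Mb (vertical) on each rat chromosome (horizontal), with exact Poisson 95% intervals as error bars. Chromosome 12 is highest at 4.04 per Mb and the X lowest at 0.504.

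Active marks were rare at these regions at every stage. H3K27Ac was met by 34 of the 5816 in OPC (0.585%, 0.405 to 0.816), 56 in iOL (0.963%, 0.728 to 1.25) and 142 in mOL (2.44%, 2.06 to 2.87). Over all 9540 H3K9me3 regions, which include the 5816, the values were 0.608%, 0.985% and 2.23%. Apart from them, OPC or iOL regions without mOL gave 0.608%, 0.972% and 1.58% (1.13 to 2.15). Regions shared by mOL and an earlier stage gave 0.717%, 1.11% and 2.55% (1.75 to 3.58). The OPC and iOL values were thus alike over the classes. The mOL value was lower in regions without mOL, with an interval that overlaps that of mOL-alone regions. The mOL H3K27Ac list is also the longest, covering 1.42% of the placed sequence against 0.657% in OPC. Of the bases in mOL-alone regions, 0.258% lay in H3K27Ac of OPC, 0.811% in that of iOL and 1.80% in that of mOL. Of all bases of the placed sequence, 0.657%, 0.797% and 1.42% did. In shared regions the base shares were 0.209%, 0.428% and 1.000%, and in regions without mOL 0.394%, 0.486% and 0.833%. The mOL-alone regions were therefore poorer in OPC acetylation than the genome at large, as were the other classes. In mOL acetylation the mOL-alone regions were not poorer than the genome, while the other classes were. These base shares carry no intervals.

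Acetylated sequence dipped at the centre of the regions. H3K27Ac of OPC covered the centre of 0.120% (0.0484 to 0.248) of them and on average 0.847% of positions 5 to 10 kb to either side. In iOL the values were 0.481% (0.320 to 0.695) at the centre and 1.09% at the sides, and in mOL 1.44% (1.15 to 1.79) and 2.16%. The mOL regions shared with earlier stages showed 0.637% (0.275 to 1.25) at the centre and 2.09% at the sides in mOL. For H3K27Ac of OPC these shared regions showed 0.0796% and 1.21%, and OPC or iOL regions without mOL 0.203% and 0.874%. The dip was thus not particular to mOL-alone regions. The surroundings were not poor in acetylation: 19.9% (18.9 to 21.0) of mOL-alone regions had their centre within 10 kb of an mOL H3K27Ac peak, where 15.3% of the placed sequence lay.

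**Figure D5:**
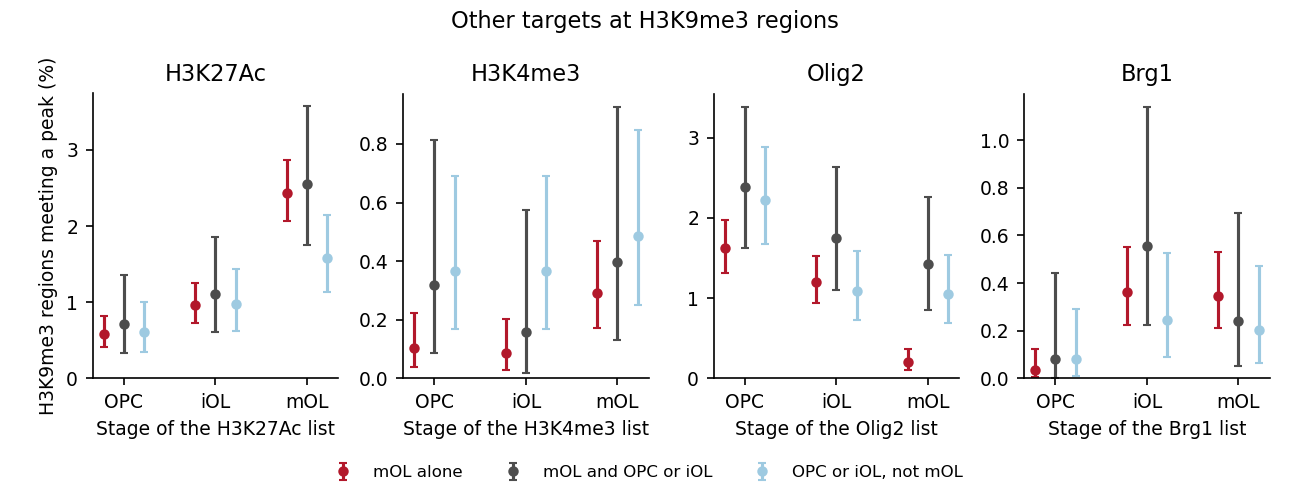
Share of H3K9me3 regions (%, vertical, a scale for each panel) meeting a peak of H3K27Ac, H3K4me3, Olig2 or Brg1 of each stage (horizontal), for regions called in mOL alone, in mOL and an earlier stage, and in an earlier stage without mOL, with exact 95% intervals. H3K27Ac of mOL was met by 2.44% of mOL-alone regions, and Olig2 of mOL by 0.206% of them against 1.43% of the shared ones.

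Sites that were active earlier were seldom found without their mark in mOL. H3K27Ac or H3K4me3 of OPC or iOL was present at 71 mOL-alone regions (1.22%, 0.955 to 1.54), beside 1.33% of all H3K9me3 regions, and at 63 of these (88.7%, 79.0 to 95) 1 or both marks were still called in mOL. Over all 9540 regions, mOL-alone ones included, 80.3% (72.3 to 86.8) kept a mark. The share was 71.4% (47.8 to 88.7) of 21 shared regions and 68.6% (50.7 to 83.1) of 35 regions without mOL. Among the mOL-alone regions, 8 of 5816 (0.138%, 0.0594 to 0.271) thus had an active mark called earlier and none in mOL. Over all H3K9me3 regions, 25 of 9540 (0.262%) had an active mark earlier and none in mOL. Read from the acetylated sites, 6 of the 34 OPC H3K27Ac peaks that met an mOL-alone region had no mOL H3K27Ac peak (17.6%, 6.76 to 34.5), against 12.0% of all OPC H3K27Ac peaks. For iOL peaks it was 6 of 59 (10.2%, 3.82 to 20.8), against 12.2% of all. Both intervals include the value over all peaks. With H3K27Ac lists of equal number, the OPC value at these regions was 26.5% (12.9 to 44.4) against 34.5% over all peaks, so its side of the background turned. The iOL value was then 14.3% (6.38 to 26.2) against 29.8%, a background above its interval. The lists come from whole cell populations, so 2 marks called at 1 place may belong to different cells.

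By stage, 84 of the 142 regions with mOL H3K27Ac had it in mOL alone, 30 in iOL and mOL, 6 in OPC and mOL and 22 at all 3 stages. Of the 147 mOL H3K27Ac peaks that met mOL-alone regions, 76 (51.7%, 43.3 to 60.0) had no OPC or iOL H3K27Ac peak, where 39.8% of all mOL H3K27Ac peaks had none. At mOL regions shared with earlier stages it was 18 of 35 (51.4%, 34.0 to 68.6). Acetylation called in mOL alone was thus found at 84 of the mOL-alone H3K9me3 regions, and acetylation no longer called in mOL at 9. The H3K27Ac lists as a whole differed in the same direction. Of 35268 mOL peaks, 14029 had no earlier peak, while 2288 of 19130 OPC peaks and 2628 of 21589 iOL peaks had no mOL peak. Over all 9540 H3K9me3 regions, 213 met H3K27Ac of mOL and 233 that of any stage, beside 142 and 151 of the mOL-alone ones. The full split by stage was not computed over all H3K9me3 regions. The mOL-alone regions with mOL acetylation were wider than those without, with a median of 1088 bp against 896 bp. Of the 142, 16 lay wholly inside acetylated sequence. The H3K27Ac peaks they met had a median of 1191 bp against 827 bp for all mOL H3K27Ac peaks, and wide intervals meet others more readily. The widest with acetylation in mOL alone was chr15:3935444-3937799 (2356 bp), which also met OPC Olig2. It was followed by chr1:168464050-168466135 (2086 bp) and chr15:84588346-84590342 (1997 bp), which met no other list.

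At 9 regions H3K27Ac was called in OPC or iOL and not in mOL, while H3K9me3 was called in mOL alone. An overlap of 1 bp sufficed, and single libraries of unknown depth cannot show that 1 mark replaced the other. Acetylation had been called in OPC alone at 5, in iOL alone at 3 and at both stages at 1, chr3:63535638-63536351 (714 bp). chr2:31173265-31174746 (1482 bp) had met H3K27Ac in iOL and lay 451 kb from any earlier H3K9me3. chr14:35227268-35228392 (1125 bp) and chr2:83183503-83184514 (1012 bp) had met it in OPC. chr13:78129340-78130277 (938 bp) had met iOL peaks of H3K27Ac and Brg1. At 2 of the 9 the promoter mark stayed: chr18:30541832-30543033 (1202 bp) met H3K4me3 at all 3 stages, and chr15:42874427-42875058 (632 bp) met it in iOL and mOL. The shortest, chr18:44384609-44385189 (581 bp), met Olig2 at all 3 stages and Brg1 in iOL and mOL after its OPC acetylation was no longer called.

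Promoter marking was rarer still. H3K4me3 was met by 6 regions in OPC (0.103%, 0.0379 to 0.224), 5 in iOL (0.0860%, 0.0279 to 0.201) and 17 in mOL (0.292%, 0.170 to 0.468), against 0.199%, 0.168% and 0.356% of all H3K9me3 regions. Of their bases, 0.102% lay in mOL H3K4me3, which covers 0.733% of the placed sequence. None of the 5816 centres was covered by H3K4me3 of OPC or iOL, which allows a share of up to 0.0634% by the exact upper bound. Of the 18 regions with H3K4me3 at any stage, 10 had it in mOL alone and 3 at all stages. Besides the chromosome 18 region above, these were chr4:57302788-57303644 (857 bp) and chr17:26965886-26966574 (689 bp), both acetylated at all 3 stages. The 1 region with H3K4me3 earlier and not in mOL was chr17:53654931-53658681 (3751 bp), marked in OPC. H3K4me3 was thus absent from the mOL list at 1 of the 6 OPC peaks that met mOL-alone regions, beside 1.41% of all OPC H3K4me3 peaks, and at 0 of the 5 iOL peaks, beside 0.497%. Of the 16 mOL H3K4me3 peaks at these regions, 6 had no OPC or iOL peak (37.5%, 15.2 to 64.6), beside 33.9% of all.

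Olig2 was met by 94 regions in OPC (1.62%, 1.31 to 1.97), 70 in iOL (1.20%, 0.939 to 1.52) and 12 in mOL (0.206%, 0.107 to 0.360). The values over all H3K9me3 regions were 1.88%, 1.25% and 0.587%. The mOL Olig2 list is the shortest. With the widest peaks of each list, in equal number, 11 regions met OPC Olig2 (0.189%, 0.0945 to 0.338), 7 iOL Olig2 (0.120%, 0.0484 to 0.248) and 12 mOL Olig2 (0.206%). The mOL value was then not lower, and the cause was not tested. In mOL the classes differed beyond counting error: 1.43% (0.852 to 2.26) of shared regions and 1.05% (0.689 to 1.54) of OPC or iOL regions without mOL met an mOL Olig2 peak. The mOL Olig2 list covers 0.0801% of the placed sequence, and it covered 0.0530% of the bases of mOL-alone regions and 0.599% of those of shared ones. Of the 131 mOL-alone regions with Olig2 at any stage, 58 had it in OPC alone, 35 in iOL alone, 26 in OPC and iOL and 9 at all 3 stages. Olig2 was no longer called in mOL at 73 of the 93 OPC peaks (78.5%, 68.8 to 86.3) and 58 of the 70 iOL peaks (82.9%, 72.0 to 90.8) that met mOL-alone regions. Among all Olig2 peaks the mOL list, which is short, lacked 88.7% of those of OPC and 90.0% of those of iOL. The OPC share at mOL-alone regions was thus below that over all peaks, and the iOL interval includes the value over all peaks. Olig2 first called in mOL was rare: 2 of the 12 mOL peaks at mOL-alone regions (16.7%, 2.09 to 48.4) had no OPC or iOL Olig2 peak, beside 5.84% of all mOL Olig2 peaks. At mOL regions shared with earlier stages it was 14 of 18 (77.8%, 52.4 to 93.6). H3K27Ac of any stage was present at 49 of the 131 (37.4%, 29.1 to 46.3), beside 29.7% of all H3K9me3 regions with Olig2 and 39.6% of all Olig2 peaks.

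Brg1 was met by 2 regions in OPC (0.0344%), 21 in iOL (0.361%, 0.224 to 0.551) and 20 in mOL (0.344%, 0.210 to 0.531), against 0.0524%, 0.356% and 0.294% of all H3K9me3 regions. With lists of equal number, the widest peaks kept, the counts were 2, 1 (0.0172%) and 3 (0.0516%). The higher iOL and mOL values were thus not seen with equal numbers. Keeping the widest peaks does not match depth, and the cause was not tested. Of the 34 regions with Brg1 at any stage, 26 also had Olig2 (76.5%, 58.8 to 89.3) and 29 H3K27Ac (85.3%) at some stage, beside 79.5% and 73.3% of all Brg1 peaks. Brg1 of mOL was found at 19 of the 142 regions with mOL H3K27Ac and at 1 of those without, and 75.8% of all mOL Brg1 peaks met mOL H3K27Ac. The iOL Brg1 peaks that met mOL-alone regions had no mOL Brg1 peak in 11 of 21 cases (52.4%, 29.8 to 74.3), against 60.2% of all iOL Brg1 peaks, and the 2 OPC peaks both had one, where 33.4% of all OPC Brg1 peaks had none. Of the 20 mOL Brg1 peaks, 12 (60.0%, 36.1 to 80.9) had no OPC or iOL peak, beside 49.8% of all. RNAPII was met by 2 regions in OPC and 2 in iOL (0.0344% each, 0.00416 to 0.124), where 0.0943% and 0.189% of all H3K9me3 regions met it. They were the widest region on the X for OPC, chr2:173585-174870 (1286 bp) for iOL, and chr6:99000669-99001442 (774 bp) for both.

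Most of the regions that met another list met only 1, and a few met many. Of the 5816 regions, 5571 met none of the 14 other lists and 245 (4.21%, 3.71 to 4.76) met at least 1. Of these, 139 met 1 list, 49 met 2 and 36 met 4 or more, a split not computed over all H3K9me3 regions. Over all H3K9me3 regions 4.88% met at least 1. The most was 9 lists, at chr8:6053129-6054134 (1006 bp), which had H3K27Ac, Olig2 and Brg1 at all 3 stages. chr8:68702245-68703458 (1214 bp) met 8 lists, with H3K27Ac and Brg1 at all stages and Olig2 in OPC and iOL. chr15:40030278-40033735 (3458 bp) and chr1:236351727-236353708 (1982 bp) met 7 each, with H3K27Ac at all stages, Olig2 in OPC and iOL, and Brg1 in iOL and mOL. The first of these lay next to the 6318 bp region of chromosome 15 named above. All 4 were on the H3K27Ac and Brg1 lists of mOL, the stage in which H3K9me3 was called there. They were picked for the number of lists met, a choice that favours this.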

How the data were processed

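The 17 files were used as the authors deposited them, each with 3 columns (chromosome, start and end of a peak) and no score, height or p-value. Per the submitters' processing notes, the tool was MACS 1.4.0 and the build rn4. The aligner, the calling settings, any control library and any pooling of cultures were not given in the sources used here, and read numbers were not analysed, so depth is unknown. A deeper library or looser threshold gives a longer list and more regions called at 1 stage alone.

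Starts were converted to 1-based positions. H3K9me3 peaks of the 3 stages that overlapped or touched were joined, and regions meeting an mOL peak and no OPC or iOL peak were kept. Overlap meant 1 bp or more. Gaps were measured between edges, except that the density by distance and the sequence within 10 kb of a list used region centres. Chromosome length was the largest peak end over the 17 lists. Shares carry exact Clopper-Pearson 95% intervals and densities exact Poisson 95% intervals. Both treat regions as independent and cover counting error only. No test between stages was possible with single libraries. The members and the lists were chosen with earlier results of these data known.

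Regions named were the 5 widest, the groups with most members at a 10 kb gap, those nearest the limits of the rule, and the widest with set combinations of marks. Where a combination is given in full, or by the number of lists met, it was chosen after its values were seen. Genes and sequences are not given, as no table or genome of build rn4 was used here. Alternatives were overlap of 50% of the shorter interval, a distance of 1000 bp, middle 200 bp, wider 50% of a list, equal numbers of peaks, other gaps and no unplaced sequence. Leaving out the largest group was added after seeing the data. The calculations used Python 3.11.15, numpy 2.4.6, pandas 2.3.3, scipy 1.17.1 and matplotlib 3.10.9. They were tested on simulated lists, and overlap counts matched bedtools 2.31.1 for all 14 lists set against the members.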

Additional observations from a re-analysis of the deposited data

How the results depend on the processing

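Of 139 alternative values, 65 stayed close to the reported one and 74 did not: shares and the median width were held to the 95% interval of the reported value, and the number of regions to 1.5 times. The ratio of the X to autosomes had no interval and was counted among the 74. The number of mOL-alone regions was 2226 with the widest mOL peaks, as many as in the OPC list, and 2837 with the wider 50% of each H3K9me3 list. They were then 71.0% and 80.2% of mOL regions, and the median width with lists of equal number was 1238 bp. Regions with another within 5 kb made up 12.3% and within 25 kb 26.2%; an earlier peak lay within 5 kb of 5.43%, within 25 kb of 14.9%, and within 10 kb of 5.28% with the wider 50% of the earlier lists. Without the group of 31 these shares at 10 kb were 16.7% and 7.99%. H3K27Ac of OPC, iOL and mOL was met by 0.224%, 0.550% and 1.63% with 50% overlap, by 1.62%, 2.46% and 4.76% within 1000 bp, by 0.206%, 0.533% and 1.62% with the middle 200 bp, by 0.361%, 0.705% and 1.65% with the wider 50% of each list, and by 0.894%, 1.41% and 3.27% of the wider 50% of regions. With equal numbers of H3K27Ac peaks the mOL value was 1.77%, and the shares for Olig2 of OPC and iOL and for Brg1 of iOL and mOL were lower, as given with them. Loss of H3K27Ac in mOL stayed within its interval under all 4 alternatives, with 13.7% to 26.5% of OPC peaks lost and 8.75% to 14.3% of those in iOL. With equal numbers, loss over all peaks was 34.5% in OPC and 29.8% in iOL, above both values at mOL-alone regions. Per mOL region in place of per Mb, the ratio of the X to autosomes was 1.01. The cause of these shifts was not tested, beyond the fewer peaks or narrower or wider windows that each alternative uses. No H3K9me3 peak lay on unplaced sequence, so leaving it out changed nothing. No paired analysis was possible because each target and stage has 1 library. Unknown depth limits every call of a region as absent in OPC or iOL.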

Other observations

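By windows of 1 Mb, 705 of 2729 windows held no mOL-alone H3K9me3 region, 329 held 5 or more and 34 held 10 or more, the last with 485 regions between them. The window with most was on chromosome 18 from 30 to 31 Mb, with 47, and contained the group of 31. The next were on chromosome 1 from 74 Mb, with 29, chromosome 5 from 164 Mb, with 21, and chromosome 8 from 36 Mb, with 19. The first and last 5 Mb of the chromosomes held 391 regions, or 1.86 per Mb, against 2.16 per Mb elsewhere.

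Olig2 of iOL covered the centre of 0.138% (0.0594 to 0.271) of mOL-alone regions and on average 1.13% of positions 5 to 10 kb to either side, and Olig2 of OPC 0.430% (0.278 to 0.634) and 1.71%. Of the mOL-alone regions, 23.2% (22.2 to 24.4) had their centre within 10 kb of an iOL Olig2 peak and 21.4% (20.3 to 22.4) of an OPC one, where 16.1% and 14.6% of the placed sequence lay. For H3K4me3 of mOL it was 7.43% (6.77 to 8.13), where 8.53% of the sequence lay. Of the 24 mOL Olig2 peaks that met OPC or iOL H3K9me3 regions without mOL, 16 (66.7%, 44.7 to 84.4) had no earlier Olig2 peak. RNAPII of iOL was met by 2 of 5816 mOL-alone regions, 4 of 1256 shared regions and 12 of 2468 regions without mOL.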
